A study of Homo sapiens with 11 samples.

Results

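LRP1, its chaperone LRPAP1 and 7 other receptors of the LDL receptor family were followed in the RNA of 11 PC-3 tumours, 9 genes of the 25590 listed. The receptors beside LRP1 are the lipoprotein and reelin receptors VLDLR and LRP8, the Wnt co-receptors LRP5 and LRP6, the sorting receptor SORL1, and LRP10 and LRP4. They were chosen by name, as the receptor of transformed alpha2-macroglobulin (A2M*) with its chaperone and relatives. The choice used no measured value as a rule, but earlier results of these data were known. PC-3 cells derive from a human prostate carcinoma, and the tumours had grown under the skin of male athymic nude mice (Crl:NU-Foxn1nu, 8 weeks old) from PC-3 cells injected with matrigel. The mice then received intraperitoneal A2M*, the transformed form of the protease inhibitor A2M, in 1 group (6 tumours), or PBS in the control group (5 tumours). Nude mice lack T cells but keep other immune cells, all tumours came from 1 cell line, and the labels do not say whether each tumour came from a mouse of its own. P-values therefore measure the spread between these tumours.

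LRP1 is a large endocytic receptor that binds many unrelated ligands outside the cell, among them A2M after it has trapped a protease, complexes of urokinase with its inhibitor PAI-1, and thrombospondin, and carries them to the lysosome. LRPAP1 (also called RAP) holds newly made receptors of the family free of ligand in the endoplasmic reticulum until they reach the cell surface. LRP5 and LRP6 pair with Frizzled receptors to receive Wnt proteins, VLDLR and LRP8 receive reelin and take up apolipoprotein E particles, SORL1 sorts cargo between the Golgi and endosomes, LRP10 also traffics between these compartments, and LRP4 binds agrin and the Wnt inhibitor sclerostin.

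Between 16958533 and 35874381 human reads per tumour were counted on genes, and 22078 genes had a read in at least 1 tumour. A floor of 3 counts corresponded to 0.0836 to 0.177 RPM (reads per 1000000 counted reads) at this depth, for counting error only. Keratin genes of the carcinoma cells were high (KRT19 had 394 RPKM and KRT18 had 316 RPKM on average, RPKM being RPM per kilobase of exon), and the androgen-regulated genes KLK3 (0 counts) and KLK2 (at most 1 count) were under the floor. Reads of the mouse host had been sorted out by the authors and were not analysed here. Markers of fibroblasts, macrophages and endothelium were uneven in the human reads. COL1A1 had 7677 to 28262 counts per tumour, COL3A1 224 to 1247, CD68 381 to 902, PECAM1 238 to 803 and LYZ 116 to 245, whereas TYROBP had 0, CD163 at most 2, DCN at most 3 and LUM 2 to 5.

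The genes lie apart from each other in the genome (GRCh37). LRP1 spans 57522266 to 57607144 on chromosome 12 (forward strand), LRP6 12268959 to 12419978 on chromosome 12 (reverse), LRPAP1 3505339 to 3534173 on chromosome 4 (reverse) and VLDLR 2621182 to 2660056 on chromosome 9 (forward). LRP5 (68080059 to 68216743, forward), LRP4 (46878268 to 46940193, reverse) and SORL1 (121323023 to 121504472, forward) are on chromosome 11, LRP8 is on chromosome 1 (53708036 to 53794141, reverse) and LRP10 on chromosome 14 (23340949 to 23350922, forward). All are protein-coding, and the counts are of reads over their exons. Exons of LRP1 overlap exons of STAT6 on the other strand, which itself had 2586 to 6136 counts per tumour, and the library kit does not mark strand, so reads of the shared stretch cannot be told apart. The antisense genes VLDLR-AS1 (0 to 2 counts) and LRP4-AS1 (2 to 8 counts) were low in every tumour. Exons of LRPAP1 overlap those of other annotated genes on the same strand.

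The 250 bases before the transcription start are shown for LRP1, for VLDLR and SORL1, whose RNA varied with genes of the low-oxygen response, and for LRP5 and LRP10, whose RNA varied together. They are RefSeq sequences of GRCh38.p14, written 5′ to 3′ on the gene's own strand, and 7 of the 9 genes had an entry. Capitals mark matches, on either strand, to GGGCGG (reverse complement CCGCCC), the core of the GC box bound by SP1. They also mark ACGTG (reverse complement CACGT), 1 form of the core of the hypoxia response element. The other form of this core, GCGTG (reverse complement CACGC), was not part of this search and is not marked. Both motifs were searched as exact letters and do not overlap each other in these windows.
LRP1, chr12:57128233-57128482: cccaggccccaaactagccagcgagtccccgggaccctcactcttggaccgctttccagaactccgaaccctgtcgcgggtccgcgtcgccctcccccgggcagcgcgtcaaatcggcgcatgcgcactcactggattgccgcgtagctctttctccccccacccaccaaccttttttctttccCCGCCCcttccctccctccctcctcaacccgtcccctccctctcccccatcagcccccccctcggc
VLDLR, chr9:2621537-2621786: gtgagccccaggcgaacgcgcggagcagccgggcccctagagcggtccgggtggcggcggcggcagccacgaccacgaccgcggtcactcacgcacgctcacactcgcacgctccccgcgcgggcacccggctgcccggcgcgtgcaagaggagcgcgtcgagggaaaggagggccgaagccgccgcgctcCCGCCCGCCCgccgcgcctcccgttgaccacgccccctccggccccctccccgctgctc
SORL1, chr11:121452064-121452313: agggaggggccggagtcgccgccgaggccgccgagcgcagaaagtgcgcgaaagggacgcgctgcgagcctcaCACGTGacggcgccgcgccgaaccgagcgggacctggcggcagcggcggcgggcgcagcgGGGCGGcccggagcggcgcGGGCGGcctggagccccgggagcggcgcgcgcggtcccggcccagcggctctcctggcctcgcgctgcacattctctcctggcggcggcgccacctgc
LRP5, chr11:68312341-68312590: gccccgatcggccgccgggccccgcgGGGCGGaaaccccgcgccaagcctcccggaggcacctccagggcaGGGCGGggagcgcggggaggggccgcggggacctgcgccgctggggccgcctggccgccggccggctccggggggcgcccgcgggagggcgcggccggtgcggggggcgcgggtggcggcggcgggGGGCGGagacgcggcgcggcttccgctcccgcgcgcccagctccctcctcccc
LRP10, chr14:22871490-22871739: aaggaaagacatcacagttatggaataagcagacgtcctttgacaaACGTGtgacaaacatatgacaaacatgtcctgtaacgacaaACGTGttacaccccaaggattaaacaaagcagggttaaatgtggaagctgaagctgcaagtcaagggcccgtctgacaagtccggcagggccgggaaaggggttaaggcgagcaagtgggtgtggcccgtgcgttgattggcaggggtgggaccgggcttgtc
Over 35116 windows of the same length, GGGCGG was present in 42.6% and ACGTG in 18.5%. LRP5 held 3 matches to GGGCGG, SORL1 held 2, LRP1 held 1, VLDLR held 1 run of overlapping matches and LRP10 held none. ACGTG was matched 2 times in LRP10, 1 time in SORL1 and in neither VLDLR nor LRP1. This says only that ACGTG is not in these windows, and not that the core is absent. The VLDLR window as printed does hold the other form, unmarked, as GCGTG and as CACGC. How common that form is over all windows was not counted. The windows of LRP5 (87.2% G or C), SORL1 (80.4%) and VLDLR (78.8%) were richer in G and C than those of LRP1 (67.6%) and LRP10 (51.6%).

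Levels of the 9 genes were compared per exon length, in RPKM. Their order therefore depends on the annotated exon lengths, such as 3250 bases for LRP10, 10703 for LRPAP1 and 14888 for LRP1. LRP10 was the highest with 78.0 ± 10.1 RPKM (SD, n = 11), followed by LRP1 with 39.4 ± 7.18, SORL1 with 34.1 ± 6.69 and LRP5 with 24.2 ± 3.28. LRPAP1 had 8.90 ± 0.713 RPKM, LRP8 3.98 ± 1.08, LRP6 3.90 ± 0.474, VLDLR 0.817 ± 0.220 and LRP4 0.104 ± 0.0258. The 9 genes thus covered a wide span, from rank 794 among the 22078 genes with a read for LRP10 to rank 17537 for LRP4, with LRP1 at rank 1895, above 91.4% of these genes. LRP10 was above LRP1 in 11 of 11 tumours without overlap, whereas LRP1 was above SORL1 in only 7 of 11 tumours and LRP8 above LRP6 in only 4 of 11, so that neither pair differed beyond its spread. SORL1 was above LRP5 in 11 of 11 tumours, although their ranges overlapped (lowest SORL1 22.9 RPKM, highest LRP5 28.9 RPKM). Below them, LRP5 was above LRPAP1, LRPAP1 above LRP8, LRP6 above VLDLR and VLDLR above LRP4 in 11 of 11 tumours without overlap. Of the RPKM summed over the 9 genes, LRP10 made up 40.2%, LRP1 20.3%, SORL1 17.7% and LRP5 12.5% on average, whereas LRPAP1 made up 4.62%, LRP8 2.10%, LRP6 2.05%, VLDLR 0.420% and LRP4 0.0538%.

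**Figure D1:**
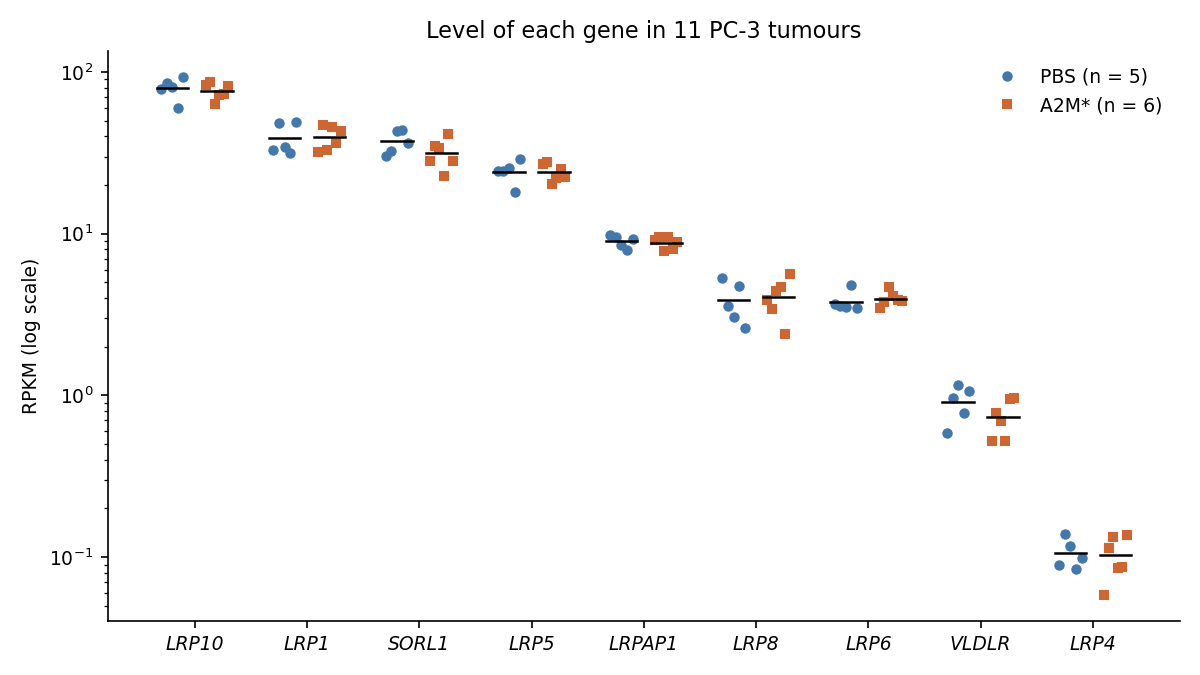
Level of each of the 9 genes in RPKM (log axis), 1 point per tumour, PBS as circles and A2M* as squares, with horizontal lines at the group means. The genes lie between 0.0585 RPKM (lowest LRP4) and 93.5 RPKM (highest LRP10), and for every gene the points of both groups overlap.

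The comparison of the groups asks whether the RNA of LRP1 or of its relatives differed between tumours of A2M*-treated and PBS-treated mice. None of the 9 genes passed the test, and the tumours of both groups overlapped for each. All 9 were high enough to be tested. Of these, 7 had a lower and 2 a higher point estimate in the A2M* tumours, with a median log2 fold change of -0.08, beside 50.6% lower and 49.4% higher estimates and a median of -0.0021 over the 16630 genes tested. None of the 9 had a log2 fold change of 0.5 or more in either direction, as had 2.32% of the genes tested. The background was 0.0% of the genes tested at an adjusted p under 0.01 and likewise 0.0% under 0.05, and 7.08% (1178 genes) at an unadjusted p under 0.05 (edgeR quasi-likelihood test). DESeq2 and the exact test of edgeR each called 1 gene at an adjusted p under 0.01, which was none of the 9. None of the 9 was below an unadjusted p of 0.05. Groups that did not overlap were found for 0.71% of all genes tested and for none of the 9.

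LRP1 itself, the receptor of A2M*, had 33.0, 48.1, 34.6, 31.4 and 48.9 RPKM in the PBS tumours and 32.0, 47.1, 32.9, 45.8, 36.5 and 43.4 RPKM in the A2M* tumours. Both groups held low and high tumours, and no tumour lay between 36.5 and 43.4 RPKM. Below this gap were 6 tumours (3 PBS and 3 A2M*) and above it 5 (2 PBS and 3 A2M*). The log2 fold change was -0.03 with a standard error of 0.152 (edgeR, adjusted p = 0.980), and its 95% interval from -0.36 to 0.30 covers folds from 0.781 to 1.23. The sign of this estimate depends on the scaling, as it was 0.016 with library size only and 0.025 on the log2(RPKM + 1) scale. Between tumours of a group LRP1 varied more than most genes of like abundance, with a biological coefficient of variation of 17.8%, higher than that of 89.7% of them.

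The chaperone LRPAP1 varied least of the 9 genes between tumours. It had 9.80, 9.47, 8.57, 7.94 and 9.22 RPKM in the PBS tumours, and in the A2M* tumours the lowest value was 7.77, the median 9.03 and the highest 9.50 RPKM. Its log2 fold change was -0.08 with a standard error of 0.0786 (95% interval -0.24 to 0.09, edgeR adjusted p = 0.900), and its biological coefficient of variation of 9.85% was near the middle of genes of like abundance (above 51.5% of them). Per exon length there was less LRPAP1 than LRP1 RNA in every tumour, with a ratio of 0.237 ± 0.0445 (SD, n = 5) in the PBS and 0.226 ± 0.0326 (SD, n = 6) in the A2M* tumours. The ratio rests on annotated exon lengths of 10703 bases for LRPAP1 and 14888 for LRP1. How much of these lengths is present in the RNA was not tested, so the ratio is no measure of transcript numbers. The mean log2 ratio differed by -0.057 between the groups (two-sided exact permutation test over 462 labelings, p = 0.682, smallest possible p 0.00216).

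**Figure D2:**
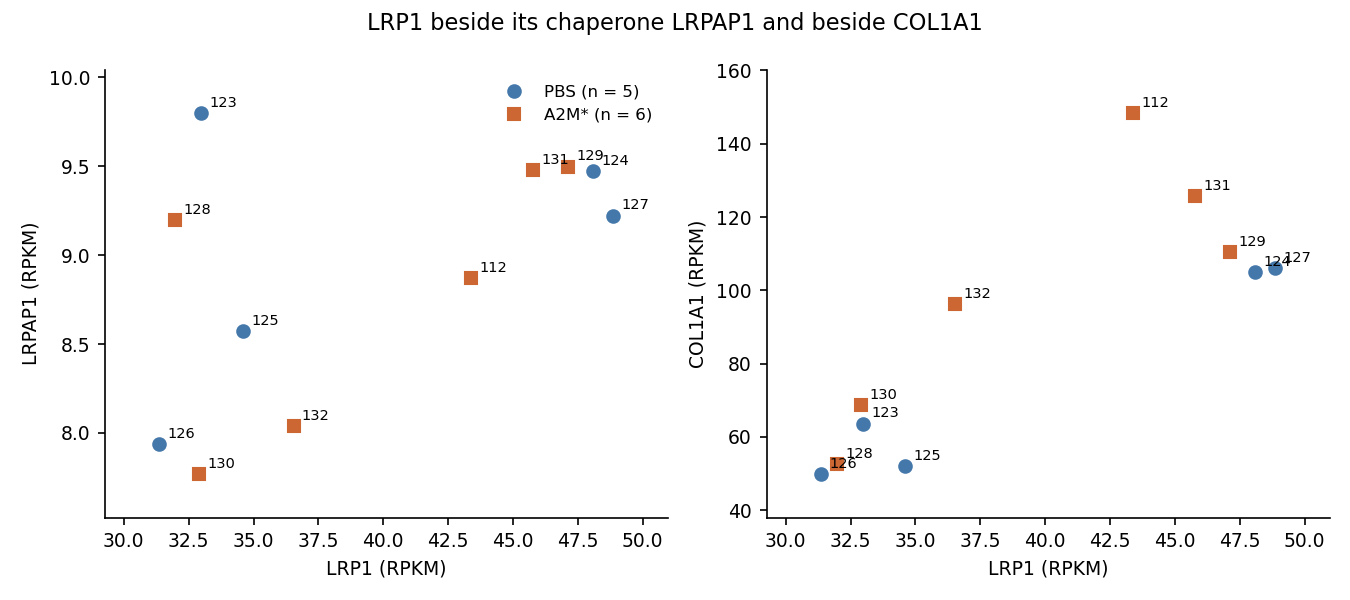
LRP1 (horizontal axis) against its chaperone LRPAP1 (left) and COL1A1 (right), all in RPKM with 1 point per tumour numbered as in its label, PBS as circles and A2M* as squares. LRP1 shows 6 tumours up to 36.5 and 5 tumours from 43.4 RPKM, both kinds holding PBS and A2M* tumours, and the latter 5 also have the most COL1A1.

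Genes whose variation over the 11 tumours was most like that of LRP1 were looked for among 15018 genes, with the group means removed. They were KIF21B (Pearson r = 0.93), a kinesin, ZMIZ1 (0.92), a transcriptional co-regulator, COL6A1 (0.92) and COL1A1 (0.91), chains of collagens VI and I, and CLIP2 (0.91), a linker protein of microtubules. These coefficients are a description over 11 tumours that share their libraries and scaling. COL1A1 had 63.6, 105.0, 52.0, 49.7 and 106.1 RPKM in the PBS tumours and 52.6, 110.4, 68.7, 125.8, 96.3 and 148.4 RPKM in the A2M* tumours, in the same order of tumours as given for LRP1. The 5 tumours with the most LRP1 were also the 5 with the most COL1A1, 2 from the PBS and 3 from the A2M* group. COL1A1 is itself on the list of 7 fibroblast markers. In these human reads the list does not measure the fibroblasts of the host, which are mouse cells. The other members were lower per exon length, with 5.38 RPKM on average for COL3A1 (224 to 1247 counts), 0.530 RPKM for COL1A2 (38 to 170 counts), 9 to 52 counts for PDGFRB and 5 to 24 for PDGFRA. Summed over the list, the PBS tumours had 319.9 to 665.3 RPM (median 411.1) and the A2M* tumours 320.6 to 922.3 RPM (median 658.0). Of the 5 list genes tested, 5 had a higher estimate in the A2M* tumours with a median log2 fold change of 0.37, and only COL1A2 had an unadjusted p under 0.05 (log2 fold change 0.73, edgeR adjusted p = 0.699). With group means removed, LRP1 had r = 0.70 (exact permutation within the groups, p = 0.00907, adjusted p = 0.0544) and rho = 0.76 (exact permutation, p = 0.00779, adjusted p = 0.0982) with the mean log2 CPM of the list, which did not pass the adjustment over 36 relations (9 genes with 4 measures). Over all 11 tumours, 2.50% of genes had an absolute r with the list at least as large as the 0.70 of LRP1. Without the 2 tumours farthest from the median of the list, r of LRP1 was 0.80. All coefficients given for LRP1 span the gap between 36.5 and 43.4 RPKM and were not repeated on either side of it. The part of these genes in the level of LRP1 was not tested further.

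The Wnt co-receptors LRP5 and LRP6 varied in opposite directions from tumour to tumour, and neither passed the test between the groups. LRP5 had 24.4, 24.3, 25.5, 18.0 and 28.9 RPKM in the PBS tumours and 20.2 (lowest), 23.8 (median) and 27.9 RPKM (highest) in the A2M* tumours. LRP6 had 3.69, 3.56, 3.51, 4.83 and 3.45 RPKM in the PBS tumours and 3.49, 3.87 and 4.71 RPKM as lowest, median and highest of the A2M* tumours. The PBS tumour PC3_tumor_126, named as in the labels, had the least LRP5 and the most LRP6 of all 11 tumours, and A2M* tumour PC3_tumor_130 was the next on both. The log2 fold changes were -0.05 (standard error 0.120, adjusted p = 0.959) for LRP5 and 0.02 (standard error 0.0927, adjusted p = 0.979) for LRP6, with 95% intervals from -0.31 to 0.21 and from -0.18 to 0.22 (edgeR). The LRP5 estimate turned to 0.0013 on the log2(RPKM + 0.1) scale. LRP10, a trafficking receptor, followed LRP5. It had 78.1, 85.3, 81.1, 59.9 and 93.5 RPKM in the PBS tumours and 63.6, 77.4 and 86.8 RPKM as lowest, median and highest of the A2M* tumours, again with tumours PC3_tumor_126 and PC3_tumor_130 at the bottom. Its log2 fold change was -0.10 (standard error 0.118, 95% interval -0.35 to 0.15, edgeR adjusted p = 0.910).

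Among the 36 pairs of the 9 genes, 21 had a positive and 15 a negative correlation of log2 CPM after removal of the group means, and 2 pairs passed the adjustment over all pairs. LRP5 and LRP10 had Pearson r = 0.92 (exact permutation within the groups, p = 0.00108, adjusted p = 0.0194) and Spearman rho = 0.90 (exact permutation, p = 0.00131, adjusted p = 0.0471). LRP5 and LRP6 had Pearson r = -0.92 (exact permutation, p = 0.000579, adjusted p = 0.0194) and Spearman rho = -0.82 (exact permutation, p = 0.00341, adjusted p = 0.0615). Without the 2 tumours farthest from the median of LRP5, the coefficients were 0.74 and -0.74. LRP6 and LRP10 had r = -0.87 and rho = -0.68, which did not pass (exact permutation, adjusted p = 0.0544 and 0.246). Without the 2 tumours farthest from the median of LRP6, r of this pair was -0.47. LRP1 and its chaperone LRPAP1 had r = 0.62 and rho = 0.65, which did not pass either (exact permutation, adjusted p = 0.199 and 0.246), and r was 0.59 without the 2 tumours farthest from the median of LRP1. LRPAP1 had larger absolute coefficients with LRP10 (r = 0.79), LRP6 (-0.73), LRP5 (0.66) and SORL1 (-0.63). The same held for LRP1 with LRP10 (0.68), and none of these pairs passed. An absolute r of at least 0.6 was common for LRP5, LRP6 and LRP10, with 36.5%, 32.0% and 27.0% of 15017 other genes. For LRP1 this share was 7.61% and for LRPAP1 17.6%. The larger coefficients of LRP5 were rarer. Its r with LRP10 was reached by 0.659% of genes, and an r as low as that with LRP6 by 0.646%.

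PC3_tumor_126 and PC3_tumor_130 also stood apart in the balance between GC-rich and GC-poor transcripts, and these values are given beside the pairs. For each tumour, the mean deviation of log2 CPM was taken over tested genes with the highest transcript GC content (from 57.9% up) minus that over genes with the lowest (up to 40.7%). This GC balance was -0.45 in PC3_tumor_126, -0.38 in PC3_tumor_130 and -0.22 in PC3_tumor_131, and between -0.064 and 0.29 in the other 8. Transcripts of LRP5 have 62.9% G or C, of LRP1 60.1% and of LRP10 56.6%, whereas those of LRP6 have 40.9% and those of VLDLR 42.8%. Between them are LRP4 (54.9%), LRPAP1 (52.9%), LRP8 (52.5%) and SORL1 (47.4%). LRP5 followed the GC balance with r = 0.93 (rho = 0.87) and LRP6 with r = -0.92 (rho = -0.72). Of 36 relations of the 9 genes with 4 measures (GC balance, total counts and the means of the low-oxygen and fibroblast lists), these and those of VLDLR and SORL1 with the low-oxygen list passed the adjustment of Pearson's r. For LRP5 and LRP6 the adjusted p was 0.0208 by Pearson's r and 0.0982 by Spearman's rho (exact permutation within the groups). The coefficient of GC-rich LRP1 was 0.41 and that of GC-poor VLDLR was 0.29, of the opposite sign to LRP6 (exact permutation, adjusted p = 0.659 and 0.841). Without the 2 tumours farthest from the median GC balance, r was -0.098 for LRP1, 0.26 for VLDLR, 0.77 for LRP5 and -0.66 for LRP6. LRP10 had r = 0.83 (exact permutation, adjusted p = 0.0544). LRPAP1 and LRP8, of nearly equal GC content, had r = 0.58 and -0.59 over all tumours (exact permutation, adjusted p = 0.285 for each). Their opposite signs rested on the 2 tumours farthest from the median GC balance. Without these 2 tumours, r was -0.27 for LRPAP1, -0.67 for LRP8 and 0.41 for LRP10. SORL1 had r = 0.0054 and LRP4 r = -0.076, and without the same 2 tumours r was 0.60 and -0.19. An absolute r of at least 0.6 with the GC balance was seen for 40.5% of 15018 genes, and one as large as that of LRP5 for 2.42%. With the GC balance removed, the coefficient of LRP5 and LRP6 was -0.44, that of LRP5 and LRP10 was 0.72 and that of LRP6 and LRP10 was -0.50. With it as a covariate, the log2 fold change of LRP6 was -0.013 and that of LRP5 was 0.012. This measure was chosen after the values had been seen.

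**Figure D3:**
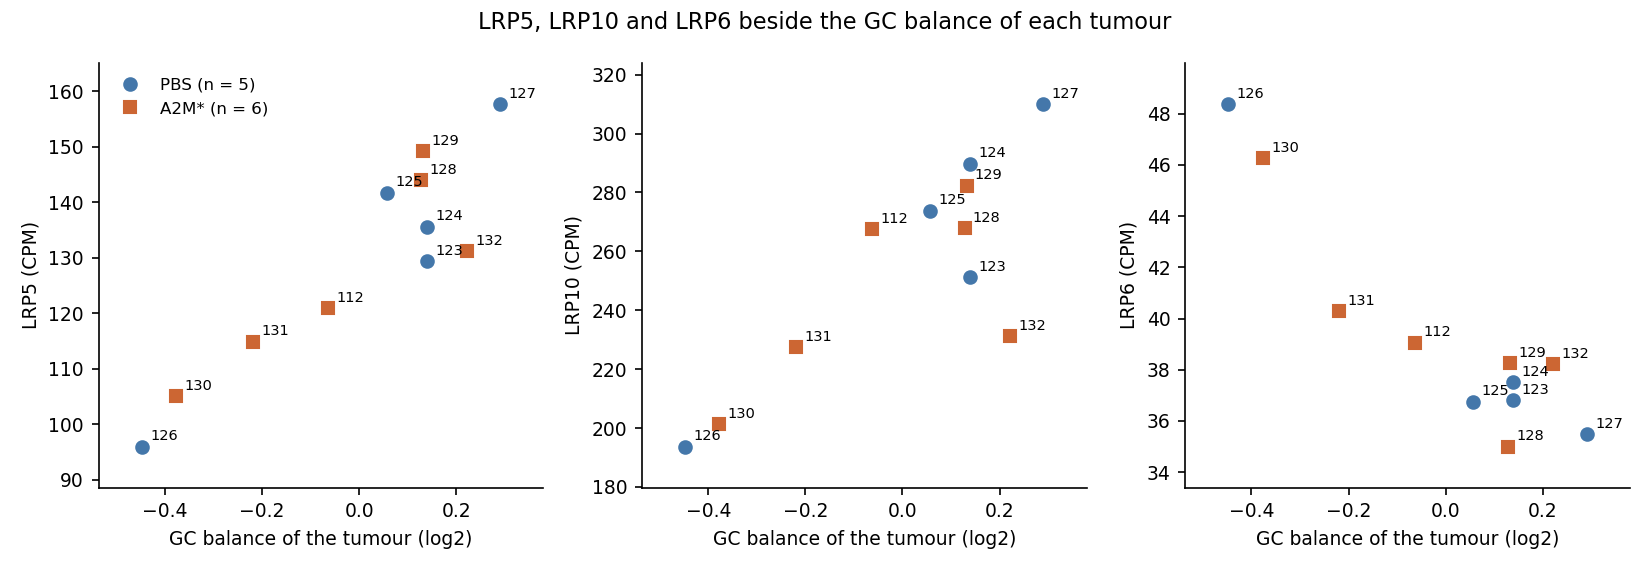
CPM of LRP5 (left), LRP10 (middle) and LRP6 (right) against the GC balance in log2 units, 1 point per tumour numbered as in its label, PBS as circles and A2M* as squares. LRP5 and LRP10 are lowest and LRP6 highest in PBS tumour PC3_tumor_126 (GC balance -0.45) and A2M* tumour PC3_tumor_130 (-0.38).

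VLDLR and SORL1 had the most negative log2 fold changes of the 9 genes, and neither passed the test. SORL1 had 30.3, 32.4, 42.9, 44.0 and 36.1 RPKM in the PBS tumours and 28.2, 35.0, 34.1, 22.9, 41.2 and 28.0 RPKM in the A2M* tumours. Of the 6 A2M* tumours, 3 were below all PBS tumours, and the others lay within the PBS range. The mean was 37.2 ± 6.15 RPKM (SD, n = 5) in PBS and 31.6 ± 6.50 RPKM (SD, n = 6) in A2M* tumours, a log2 fold change of -0.28 with a standard error of 0.143. The 95% interval ran from -0.59 to 0.03, and edgeR gave an unadjusted p = 0.0702 and an adjusted p = 0.739. VLDLR, at 48 to 145 counts per tumour one of the less deeply covered genes, had 0.590, 0.959, 1.16, 0.782 and 1.07 RPKM in the PBS tumours and 0.522, 0.778, 0.696, 0.521, 0.949 and 0.967 RPKM in the A2M* tumours. All 6 A2M* tumours were at or below the PBS median by CPM, yet only 2 of them were below all PBS tumours. Its log2 fold change was -0.36 (standard error 0.216, 95% interval -0.83 to 0.10, edgeR adjusted p = 0.783).

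VLDLR and SORL1 varied with a list of 12 genes of the low-oxygen response, such as PGK1 (a glycolytic enzyme), PDK1 (which limits entry of pyruvate into mitochondria), BNIP3 (a mitophagy receptor) and NDRG1 (a stress-induced gene). Each of the 12 had a lower estimate in the A2M* tumours, with a median log2 fold change of -0.59, and 9 of them had an unadjusted p under 0.05, beside 3.53% of all genes tested that were lower at that level. No adjusted p was below 0.599. PGK1 had 636 ± 108 RPKM (SD, n = 5) and 486 ± 74.1 RPKM (SD, n = 6), a log2 fold change of -0.43, and those of PDK1, NDRG1 and BNIP3 were -0.77, -0.77 and -0.58. The mean log2 CPM of the list was 6.80, 7.71, 7.90, 7.36 and 7.48 in the PBS tumours and 6.65, 7.28, 6.95, 6.34, 7.33 and 6.93 in the A2M* tumours, so the groups overlapped. The 2 lowest tumours on the list, A2M* tumours PC3_tumor_131 and PC3_tumor_128, were also the lowest on VLDLR, and PC3_tumor_131 was the lowest on SORL1. PBS tumour PC3_tumor_125 was the highest on the list and on VLDLR.

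With group means removed, VLDLR followed the list with r = 0.87 (exact permutation within the groups, p = 0.00174, adjusted p = 0.0208) and rho = 0.75 (exact permutation, p = 0.0187, adjusted p = 0.0982). SORL1 followed it with r = 0.81 (exact permutation, p = 0.00475, adjusted p = 0.0427) and rho = 0.75 (exact permutation, p = 0.0171, adjusted p = 0.0982). LRP8 varied in the opposite direction to the list, and its r did not pass. It had r = -0.64 (exact permutation, p = 0.0479, adjusted p = 0.246) and rho = -0.74 (exact permutation, p = 0.0193, adjusted p = 0.0982). Without the 2 tumours farthest from the median of the list, r was 0.72 for VLDLR, 0.57 for SORL1 and -0.54 for LRP8. Inside the groups the coefficient of VLDLR was 0.94 over the 5 PBS and 0.81 over the 6 A2M* tumours, and that of SORL1 was 0.64 and 0.95. Absolute coefficients at least as large were found for 0.659% of genes in the case of VLDLR, 1.81% for SORL1 and 10.5% for LRP8. With the list mean as a covariate, the log2 fold change was 0.15 for VLDLR and 0.0078 for SORL1, and neither passed the test. The list genes themselves had lower estimates in the A2M* tumours, so this fit cannot separate treatment from the list. The relations were chosen after the values had been seen, and in bulk RNA fewer cells that express a gene and less RNA per cell cannot be told apart.

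**Figure D4:**
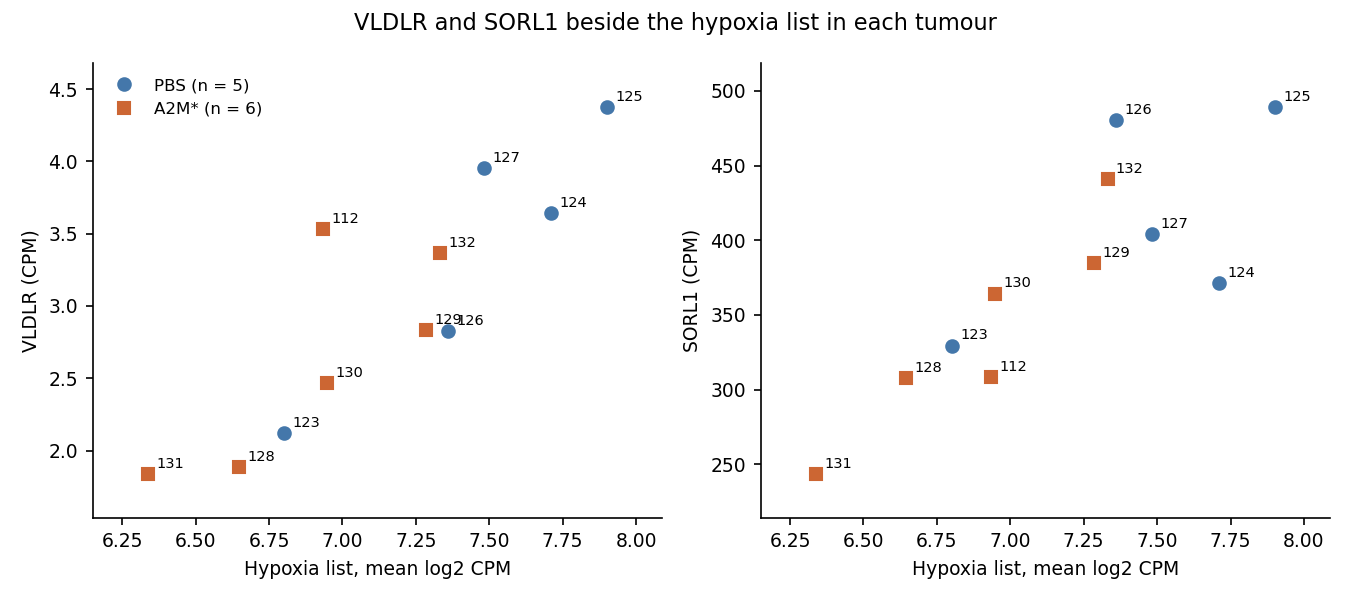
CPM of VLDLR (left) and SORL1 (right) against the mean log2 CPM of the 12 low-oxygen response genes (hypoxia list), 1 point per tumour numbered as in its label, PBS as circles and A2M* as squares. Both genes are lower where the list is lower in either group, with r = 0.87 for VLDLR and 0.81 for SORL1 after removal of the group means.

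LRP8, the other reelin receptor, was the most variable of the 9 genes for its abundance. It had 5.31, 3.56, 3.07, 4.78 and 2.62 RPKM in the PBS tumours and 2.39, 4.15 and 5.65 RPKM as lowest, median and highest of the A2M* tumours. The lowest and the highest value of all tumours were both in the A2M* group. The biological coefficient of variation of 24.2% was above that of 96.0% of genes of like abundance. The log2 fold change was 0.05 with a standard error of 0.209 (95% interval -0.40 to 0.49, edgeR adjusted p = 0.979), and it was -0.021 with the GC balance and -0.30 with the low-oxygen list as a covariate. LRP4, the agrin receptor, was barely measured with 16 to 37 counts per tumour. It had 0.105 ± 0.0223 RPKM (SD, n = 5) in PBS and 0.102 ± 0.0304 RPKM (SD, n = 6) in A2M* tumours, a log2 fold change of -0.10 with a standard error of 0.235 (95% interval -0.61 to 0.40, edgeR adjusted p = 0.958). A change of LRP4 within that interval is not excluded.

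**Figure D5:**
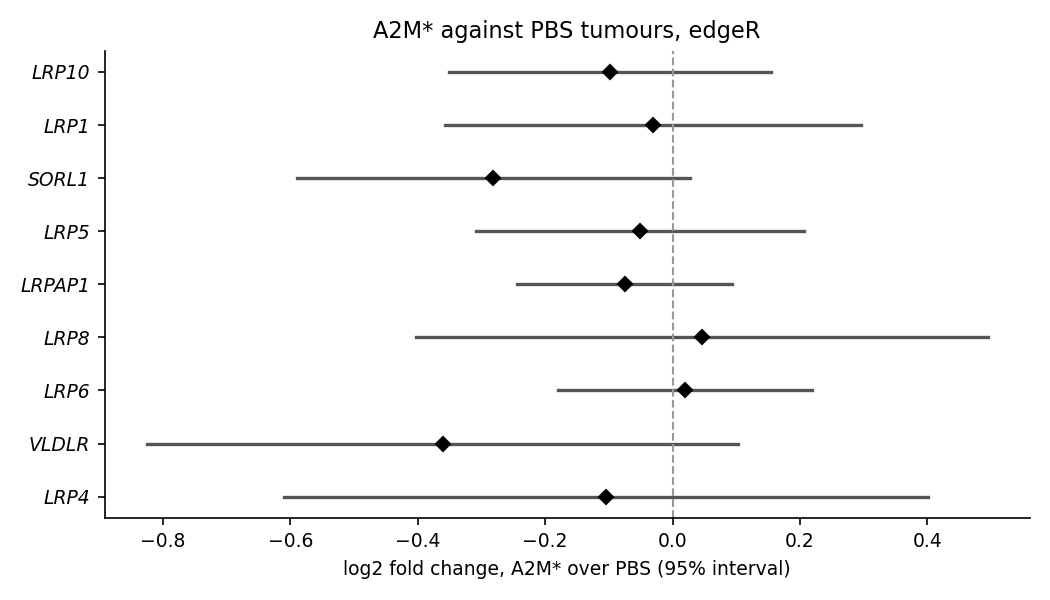
Log2 fold change (A2M* over PBS) of the 9 genes with the 95% interval from the edgeR fit as a horizontal bar, and a vertical line at 0. Every interval includes 0, from the narrowest for LRPAP1 (-0.24 to 0.09) to the widest for LRP4 (-0.61 to 0.40).

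The partners of these receptors were described by lists of genes grouped by role. Among 13 relatives of the family, 9 were tested, 4 with a higher and 5 with a lower estimate and a median log2 fold change of -0.02. The most abundant were LRP11 (23.4 RPKM) and SORT1 (sortilin, 9.96 RPKM), and LRP2, the megalin of kidney epithelium, had at most 3 counts. LDLRAD2 had an unadjusted p under 0.05 (log2 fold change -0.36, edgeR adjusted p = 0.642). Of the 20 tested genes for adaptors and sorting of the receptors, 5 were higher and 15 lower by estimate with a median of -0.03 and none at an unadjusted p under 0.05. AP2M1, a subunit of the clathrin adaptor, had 214 RPKM and SHC1, which binds the phosphorylated tail of LRP1, 60.9 RPKM, whereas DAB1, the adaptor of the reelin receptors, had 0 counts in all tumours. All 16 genes for folding and cleavage of the receptors were tested, 8 higher and 8 lower by estimate, with a median of -0.01. The chaperones HSP90B1 (648 RPKM) and HSPA5 (380 RPKM) led this list. HSPA5 had 328 ± 29.8 RPKM (SD, n = 5) in PBS and 424 ± 86.4 RPKM (SD, n = 6) in A2M* tumours, with a log2 fold change of 0.33 and an adjusted p = 0.642 (edgeR).

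Among 24 ligands of LRP1, a list that includes LRPAP1, 21 were tested, 8 higher and 13 lower by estimate, with a median of -0.02 and none at an unadjusted p under 0.05. Urokinase (PLAU) had 1953 RPKM and calreticulin (CALR) 1059 RPKM on average, far above LRP1 itself. The log2 fold change of PLAU was -0.05 and that of CALR -0.04, and the sign of CALR depended on the scaling (0.0069 with library size only). The tumour cells' own A2M RNA was at most 2 counts in each tumour, so that it was not shown at this depth, and the related PZP and the lipase LPL were also at or under the floor. For Wnt signals received by LRP5 and LRP6, 22 of 27 genes were tested, 9 higher and 13 lower by estimate, with a median of -0.02. DKK1, a secreted inhibitor that binds LRP5 and LRP6, was the highest with 1027 RPKM and a log2 fold change of 0.02, and DVL1, which passes the signal on inside the cell, had 93.6 RPKM. The receptor FZD8 had 96.0 ± 19.0 RPKM (SD, n = 5) in PBS and 78.7 ± 9.97 RPKM (SD, n = 6) in A2M* tumours, with a log2 fold change of -0.34 and an adjusted p = 0.649 (edgeR). Sclerostin (SOST), DKK4 and FZD10 had at most 2 counts in any tumour. In the list of reelin and agrin genes, 9 of 11 were tested, 7 higher and 2 lower by estimate with a median of 0.09, led by agrin (AGRN, 224 RPKM) and PAFAH1B1 (26.6 RPKM). FYN, a kinase of the reelin pathway, had a log2 fold change of 0.36 and an adjusted p = 0.642 (edgeR). Beside these lists, 3.55% of all genes tested were higher and 3.53% lower at an unadjusted p under 0.05, and HSPA5 and FYN (higher) and LDLRAD2 and FZD8 (lower) were the 4 genes of these 6 lists at that level, which is no result about the lists.

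Genes used as markers of cell types were read from the same fit, in the human reads only. Fibroblasts, macrophages and endothelium of the host are mouse cells, whose reads had been sorted out. Their markers in the human reads therefore do not measure these cells. Whether such counts came from PC-3 cells or from mouse reads sorted as human was not tested. The 6 markers of the carcinoma cells all had lower estimates in the A2M* tumours (median log2 fold change -0.12), none at an unadjusted p under 0.05. Their summed level was 2737 to 3192 RPM in the PBS and 2415 to 3055 RPM in the A2M* tumours. TMPRSS2, a protease of luminal prostate cells, had 14.6 RPKM on average and a log2 fold change of 0.13 (edgeR adjusted p = 0.928). Macrophage markers summed to 33.0 to 41.4 RPM in PBS and 34.3 to 41.9 RPM in A2M* tumours (6 of 8 tested, 4 higher and 2 lower by estimate), led by CD68 (13.1 RPKM, log2 fold change -0.08) and LYZ (116 to 245 counts, log2 fold change 0.10). Endothelial markers summed to 20.9 to 32.0 RPM and 22.2 to 48.2 RPM (4 of 6 tested, 2 higher and 2 lower by estimate), led by PECAM1 (3.93 RPKM, log2 fold change -0.01, a sign that turned with the scaling) and TIE1 (2.77 RPKM, 0.51). Their part in the levels of the 9 genes was not tested.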

How the data were processed

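RNA of 11 PC-3 tumours was sequenced from TruSeq v2 libraries, a kit that does not mark strand. As the methods of the study state, the authors separated reads by species with xenome, aligned those of human origin to hg19 (TopHat2) and summarized them per RefSeq gene (featureCounts). The strand setting of the counting is not given in the sources used here. The authors deposited raw counts without normalization, RPM (counts per 1000000 counts of the tumour, with a largest difference of 4.99e-07 from the counts) and RPKM (RPM per kilobase of exon). Sorting by species removes reads that both genomes match, which can lower conserved stretches of a gene.

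Tumours were grouped by the labelled treatment, with no covariate. The labels give no batch. Counts were filtered with filterByExpr (16630 genes kept), scaled with TMM (factors 0.958 to 1.03) and compared by edgeR (4.0.16, R 4.3.3) with its quasi-likelihood test, Benjamini-Hochberg adjustment over all genes tested and a threshold of 0.01. Intervals are at 95% and cover the spread between tumours. The biological coefficient of variation common to all genes was 13.9%, and single genes were compared with genes of like abundance. CPM are counts per 1000000 counts scaled with TMM. Relations used log2 CPM with a prior count of 2, centred on the group means, and all 86400 permutations of tumours inside the groups. The 9 genes, the lists and the rule for named genes were chosen with earlier results of these data known. From each list, the text names the 2 genes with the highest RPKM and up to 3 genes at an unadjusted p under 0.05. It also names the 5 genes most like LRP1, genes under the floor of 3 counts and, chosen after their values were seen, further fibroblast markers.

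Alternatives were RLE, upper quartile and library size scaling, no filter, a minimum of 10 counts in every tumour, DESeq2 1.42.0, the edgeR exact test, limma-voom and limma 3.58.1 on log2(RPKM + 0.1) or log2(RPKM + 1), and omission of 1 tumour at a time. The covariates and the relations with the GC balance and gene lists were added after the data had been seen. The tests were checked on simulated data. Positions are from GENCODE mapped to GRCh37, and promoter windows from RefSeq on GRCh38.p14. The values of 1 gene on the marker lists, and the summary of its list, are not reported here.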

Additional observations from a re-analysis of the deposited data

Results flagged for a closer look

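LRP6 was high in 1 PBS tumour, PC3_tumor_126, with 48.4 CPM, whereas the remaining 4 PBS tumours had 35.5 to 37.5 CPM. The gap to the nearest of them was 0.842 of the range of the group, above the 95% critical value of Dixon's test for 5 samples. In all, 20 groups of values (the 9 genes and the LRPAP1 to LRP1 ratio, in PBS and A2M* tumours) were searched, in which chance gives 1.00 such value and 1 was found. The same tumour had the lowest GC balance (-0.45), the least LRP5 and the least LRP10. The part of the GC balance in the LRP6 value was not tested. Without it the log2 fold change of LRP6 was 0.11, and with all tumours 0.02.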

How the results depend on the processing

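No gene of the family passed the threshold under any alternative. Of 207 fold changes of the 9 genes under the alternatives, 178 kept their direction and 29 changed sign. With library size only, LRP1 was 0.016, and on the log2(RPKM + 0.1) and log2(RPKM + 1) scales LRP1 was 0.026 and 0.025 and LRP5 0.0013 and 0.000983. With the GC balance as a covariate, LRP1 was 0.016, LRP5 0.012, LRP6 -0.013 and LRP8 -0.021. With the low-oxygen list as a covariate, LRP1 was 0.072, LRP5 0.043, LRP8 -0.30, VLDLR 0.15, SORL1 0.0078 and LRP4 0.21. With each tumour left out in turn, estimates ranged from -0.11 to 0.065 for LRP1, -0.15 to 0.020 for LRP5, -0.028 to 0.11 for LRP6, -0.077 to 0.18 for LRP8 and -0.23 to 0.030 for LRP4. Of 630 fold changes of the other named genes, 601 kept their direction and 29, in 8 of 30 genes, did not. AP2M1 was 0.022 with library size only and 0.021 on both RPKM scales, CALR 0.0069 with library size only, PAFAH1B1 -0.0016 without a filter, and PECAM1 0.0046 with upper quartile scaling, 0.036 with library size only and 0.039 and 0.031 on the RPKM scales. Leaving out 1 tumour at a time gave -0.052 to 0.020 for AP2M1, -0.089 to 0.017 for CALR, -0.022 to 0.020 for PAFAH1B1, -0.074 to 0.10 for PECAM1, -0.21 to 0.046 for AGRN, -0.059 to 0.10 for DKK1, -0.24 to 0.037 for PLAU and -0.065 to 0.23 for TMPRSS2. The difference in the log2 LRPAP1 to LRP1 ratio was -0.22 between medians in place of means, and with 1 tumour left out it ranged from -0.13 to 0.030, turning positive without PBS tumour PC3_tumor_123. What caused these changes was not tested.

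Over all genes, DESeq2 and the edgeR exact test each called 1 gene at the threshold, and all other alternatives called 0. Genes at an unadjusted p under 0.05 numbered 591 higher and 587 lower, 1022 and 308 with library size only, which moved the median of all genes from -0.0021 to 0.042, and 717 and 473 with upper quartile scaling. They numbered 965 and 307 on the log2(RPKM + 0.1) scale and 313 and 221 with the low-oxygen list as a covariate. The total fell to 357 and 325 without PBS tumour PC3_tumor_125 and to 388 and 378 without A2M* tumour PC3_tumor_131. The coefficients of LRP5 with LRP6 and with LRP10 were -0.82 and 0.84 without PBS tumour PC3_tumor_126, and those of LRP5 and LRP6 with the GC balance were 0.85 and -0.84. No paired analysis was possible because the groups share no tumour numbers. LRP4 and VLDLR are limited by depth, with at most 37 and 145 counts per tumour.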
